A study of Mus musculus with 18 samples.

Results

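The genes described here are 8 annexins (Anxa1, Anxa2, Anxa3, Anxa4, Anxa5, Anxa6, Anxa7 and Anxa11), dysferlin (Dysf) and Trim72. They were taken by symbol as genes of plasma membrane repair, whatever their values, and are 10 of the 33641 gene symbols in the deposited table. The study sequenced RNA from the quadriceps muscle and the white adipose tissue of obese male wild-type DBA/2J mice on a high-fat diet. In the weekly group, 3 mice received prednisone, a synthetic glucocorticoid, at 1 mg/kg once a week by injection into the peritoneum. In the daily group, 3 mice received the same dose each day, and in the vehicle group 3 mice received vehicle each day. All mice had been on the diet for 12 weeks and were about 20 weeks of age when prednisone was given, and stayed on the diet through the 12 weeks of injections. Both tissues were taken from each of the 9 mice 24 hours after the last injection, which gave 18 libraries, 3 for each tissue and regimen. The design text of the series counts 2 daily adipose samples, whereas the labels and the table hold 3, and all 3 were used. By the labels the replicates are separate mice, and there was no lean or uninjected group.

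Annexins are proteins that bind phospholipids when calcium rises, and several of them gather within seconds at a tear in the plasma membrane, where they help to form a cap that seals it. Dysferlin is a membrane protein with calcium-binding C2 domains that takes part in the fusion of vesicles at the wound, and its loss causes a limb-girdle muscular dystrophy in humans. Trim72, also called MG53, is a muscle protein of the tripartite motif family that brings vesicles to the injury site. Annexin A1 is also a secreted anti-inflammatory mediator that was first recognised as a protein induced by glucocorticoids.

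The values are TPM, transcript abundances scaled for transcript length and to one total in each library, so that levels can be compared between genes. They hold no read counts, and the depth of each library is unknown. Markers of the labelled tissue were high: the summed TPM of 8 skeletal muscle genes was 104130 to 122654 in the muscle libraries, and that of 7 adipocyte genes was 33278 to 36979 in the adipose libraries. The same 7 adipocyte genes summed to 665 to 1742 TPM in the muscle libraries, 1.88% to 4.92% of their adipose mean. The part of adipose RNA in the muscle values was not tested. Of the adipose libraries, weekly 2 and 3 and daily 2 held muscle transcripts, with summed muscle markers of 1482, 1086 and 906 TPM, against 144 to 247 TPM in the other 6, so weekly adipose results are also given without these 3, which leaves 1 weekly library. In each group the third library lay between the other two for 40.7% to 52.2% of genes, where an equal share is 33.3%, so results are also given without the third libraries where that changes them. Whether the third libraries are independent of the others was not tested, and the p-values take them as separate mice. In whole tissue, fewer cells of a type and less RNA per cell cannot be told apart.

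In muscle, Anxa6, Anxa2, Anxa11, Trim72 and Anxa5 were the most abundant of the 10 genes and Anxa3 the least. Over the 9 libraries Anxa6 ran from 96.2 to 116 TPM (median 103) and Anxa2 from 78.3 to 162 TPM (median 96.4). Anxa11 ran from 77.3 to 98.4 TPM (median 85.6) and Trim72 from 75.5 to 86.7 TPM (median 82.1). Trim72 therefore had the narrowest range of these 5 genes. Anxa5 ran from 53.0 to 99.7 TPM (median 69.1), Anxa7 from 37.5 to 44.9 TPM (median 40.4) and Anxa1 from 25.1 to 58.4 TPM (median 33.4). Anxa4 ran from 17.6 to 25.8 TPM (median 18.9), Dysf from 15.2 to 21.9 TPM (median 17.8) and Anxa3 from 13.5 to 20.4 TPM (median 15.3). In this order of medians the ranges of all neighbours overlapped except those of Anxa5 and Anxa7. Within single libraries, however, Anxa1 was above Anxa4 in all 9 and Anxa11 above Trim72 in 8 of 9, and the other overlapping neighbours kept their order in 5 to 7 of 9.

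In adipose tissue the order was another one, with Anxa2 far above the rest and Trim72 nearly undetected. Anxa2, which pairs with S100a10 in a tetramer that bridges membranes, ran from 2111 to 2412 TPM (median 2322). Anxa5, the annexin widely used to label exposed phosphatidylserine, ran from 862 to 990 TPM (median 917), Anxa1 from 517 to 709 TPM (median 557) and Anxa6 from 502 to 649 TPM (median 540). Anxa4 ran from 92.3 to 103 TPM (median 99.1), Anxa7 from 67.7 to 77.5 TPM (median 75.6) and Anxa3 from 50.3 to 84.7 TPM (median 67.4). Anxa11 ran from 47.7 to 64.2 TPM (median 53.0) and Dysf from 9.41 to 21.1 TPM (median 16.8). Trim72 ran from 0.039 to 0.81 TPM (median 0.28), below the 1 TPM in at least 3 libraries that a gene needed to be tested in a tissue. Neighbours in this order overlapped for Anxa1 and Anxa6, for Anxa7 and Anxa3, and for Anxa3 and Anxa11, and for no other pair. Within single libraries these pairs kept their order in 5, 6 and 8 of 9.

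**Figure D1:**
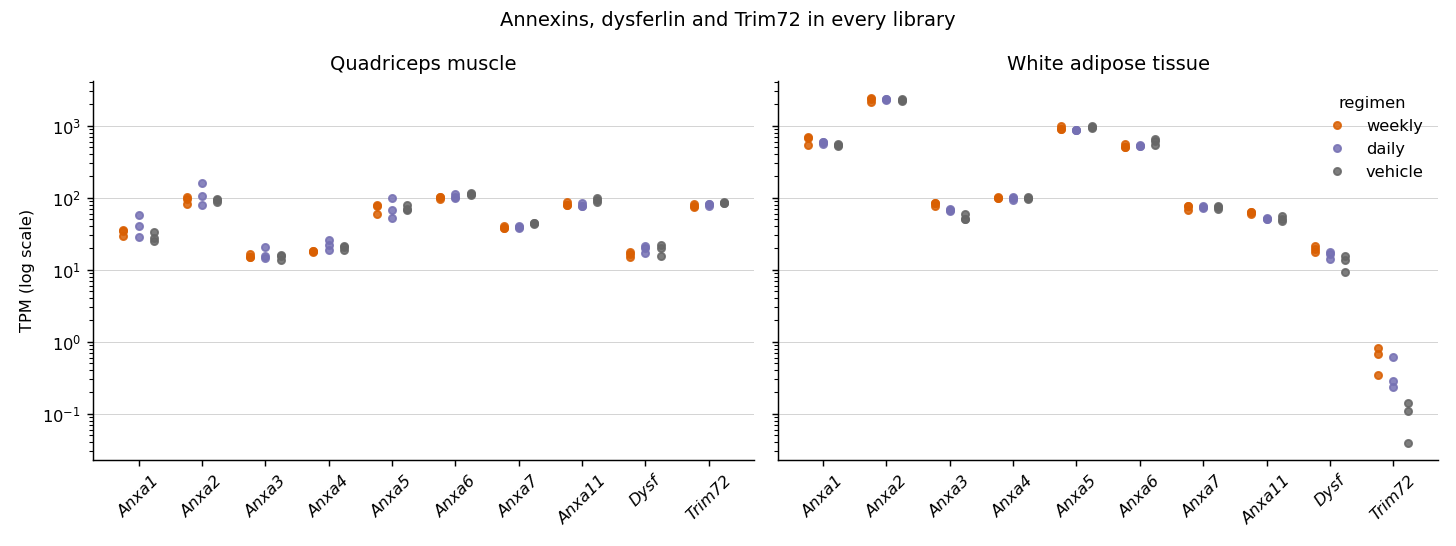
TPM on a log scale of each of the 10 genes in quadriceps muscle and in white adipose tissue, with 1 point per library and the weekly, daily and vehicle groups side by side. The 8 annexins span 13.5 to 162 TPM in muscle and 47.7 to 2412 TPM in adipose tissue, whereas Trim72 stays at or below 0.81 TPM in adipose tissue.

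The summed TPM of the 8 annexins was 415 to 598 in muscle (median 473) and 4514 to 4851 in adipose tissue (median 4654). Anxa2 made up 18.2% to 27.1% of that sum in muscle and 46.8% to 51.0% in adipose tissue.

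Muscle and adipose tissue of the same vehicle mice were compared on each mouse's difference in log2(TPM + 1), with limma fitted over 11737 genes and Benjamini-Hochberg adjustment over all of them. A gene is called here when its adjusted p is under 0.05. All 9 genes that could be tested were called, 2 higher and 7 lower in muscle, while of all genes tested 87.0% were called, 13.1% higher and 73.9% lower. The vehicle means of Anxa2 were 92.2 ± 4.07 TPM in muscle and 2263 ± 63.1 TPM in adipose tissue (SD, n = 3 each), a difference of -4.60 ± 0.18 (SE) on the log2 scale. Those of Anxa1 were 28.8 ± 4.26 TPM in muscle and 535 ± 16.8 TPM in adipose tissue, and those of Anxa5 were 72.4 ± 6.75 TPM in muscle and 961 ± 20.3 TPM in adipose tissue. These 3 annexins were thus 24.5, 18.6 and 13.3 times as high in adipose tissue. Anxa6, Anxa4 and Anxa3 were 5.33, 4.88 and 3.62 times as high in adipose tissue, and Anxa7 was 1.68 times as high there. These ratios depend on the scaling: after trimmed mean scaling (TMM) the log2 differences were -3.58 for Anxa2, -3.17 for Anxa1, -2.70 for Anxa5, -1.38 for Anxa6, -1.23 for Anxa4 and -0.80 for Anxa3.

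Anxa11 and Dysf went the other way. Anxa11, an annexin with a long disordered N-terminal part, averaged 93.0 ± 5.77 TPM in muscle and 51.7 ± 4.45 TPM in adipose tissue of vehicle mice, and its muscle and adipose ranges over all 9 mice did not overlap. Its difference was 0.84 ± 0.07 (SE) on the log2 scale, and 1.84 after TMM. Dysf averaged 19.3 ± 3.18 TPM in muscle and 12.9 ± 3.21 TPM in adipose tissue, a difference of 0.56 ± 0.16 (SE; limma adjusted p = 0.00768) that was 1.52 after TMM, and its ranges over all mice overlapped. With the TPM of protein-coding transcripts alone the difference of Dysf was 0.26 (limma adjusted p = 0.0169). Trim72 averaged 85.3 ± 1.23 TPM in muscle and 0.097 ± 0.053 TPM in adipose tissue, and its lowest muscle library and highest adipose library were far apart.

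The direction for Anxa7 depends on the scaling between tissues. The median gene of all those tested differed by -0.88 on the log2 scale as deposited and by 0.01 after TMM, which split the calls over all genes into 38.6% higher and 38.3% lower. Under TMM Anxa7 was higher in muscle by 0.28 (limma adjusted p = 0.0101), against -0.73 ± 0.08 as deposited, and the other 8 genes kept their direction. Relative to that median gene of -0.88, Anxa1, Anxa2, Anxa3, Anxa4, Anxa5 and Anxa6 were lower in muscle and Anxa7, Anxa11 and Dysf were higher.

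Dysferlin transcripts differ between the tissues in which exons they hold. The table lists 16 Dysf transcripts, of which 12 are annotated as coding, and 4 optional coding exons separate them. One of these, of 30 bases at chr6:84141923-84141952, is in 11 of the 12 and was in 98.4% to 100% of the coding Dysf TPM in muscle libraries, against 100% in adipose libraries. The other 3 differed between the tissues. They lie on the plus strand of chromosome 6 in GRCm38. Their lengths are divisible by 3, though codon boundaries were not checked. They are the 93-base exon at chr6:84064471-84064563, the 42-base exon at chr6:84096477-84096518 and the 63-base exon at chr6:84157139-84157201. Their sequences, read from the GENCODE transcripts, are shown because their shares of the coding Dysf TPM differed between the tissues. They are given in lower case with no base marked:
Dysf 93-base exon: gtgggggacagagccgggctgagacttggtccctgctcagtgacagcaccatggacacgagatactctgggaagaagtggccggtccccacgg
Dysf 42-base exon: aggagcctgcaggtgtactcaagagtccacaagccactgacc
Dysf 63-base exon: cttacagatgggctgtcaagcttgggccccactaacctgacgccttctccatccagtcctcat

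The 93-base exon was in 10.2% to 27.0% of the coding Dysf TPM in muscle (median 13.5%) and in 45.9% to 85.4% in adipose tissue (median 77.2%). The 42-base exon had the opposite pattern, at 70.4% to 87.5% in muscle (median 78.2%) and 14.6% to 54.1% in adipose tissue (median 19.7%). The 63-base exon was in 2.98% to 10.9% in muscle (median 5.99%) and in 16.4% to 34.4% in adipose tissue (median 22.6%). For each of these exons the muscle and adipose libraries did not overlap. Daily 2, an adipose library that held muscle transcripts, was nearest to muscle for the first 2 exons, with 45.9% for the 93-base exon and 54.1% for the 42-base exon. Weekly 2 and weekly 3, the other adipose libraries that held muscle transcripts, had 75.9% and 78.4% for the 93-base exon. For the 42-base exon they had 21.8% and 16.4%. The part of muscle RNA in these shares was not tested. Without the 3 adipose libraries that held muscle transcripts, the adipose ranges were 67.8% to 85.4% and 14.6% to 26.8%. These exons were chosen after their values had been seen, and the shares are given without a test. They are estimates from whole transcripts and not from reads over the exon junctions.

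**Figure D2:**
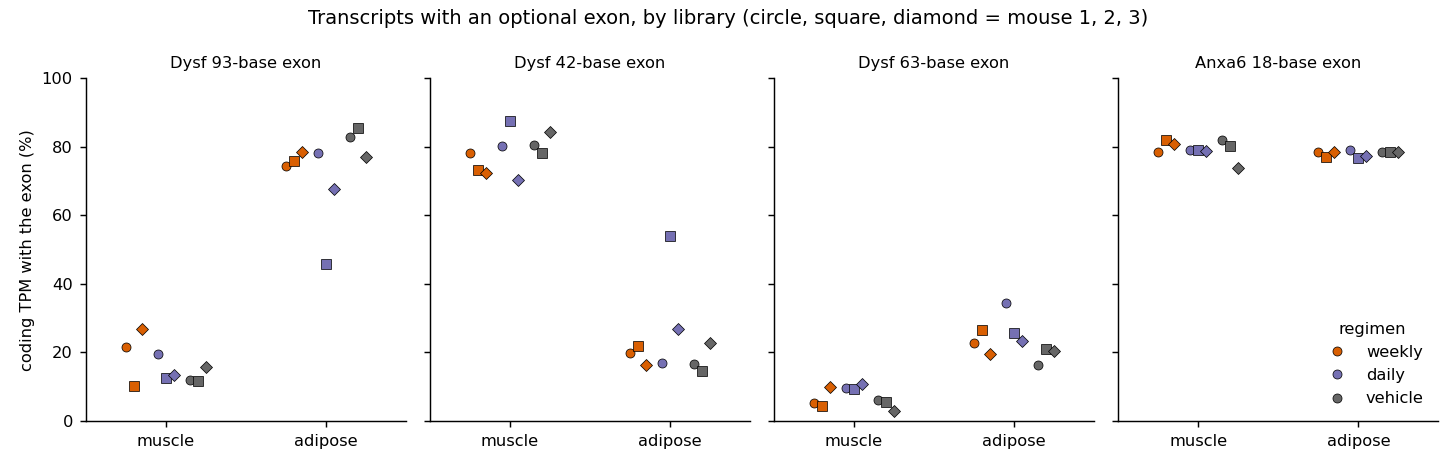
Percent of the coding TPM of a gene in transcripts that hold an optional exon, in muscle and adipose tissue, with 1 point per library, colours for the regimen and shapes for the mouse number. The 93-base exon of Dysf lies at 10.2% to 27.0% in muscle and 45.9% to 85.4% in adipose tissue, the 42-base exon lies the other way round, and the 18-base exon of Anxa6 lies between 74.0% and 82.1% in both.

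Single transcripts were tested by their percent share of the gene's TPM, with limma on the difference between the tissues of each mouse, averaged over the regimens. Of 21 tested transcripts of 9 of the genes, 7 were called, in Dysf, Anxa4 and Anxa11, while 27.4% of all 24588 transcripts tested were called. Dysf-201 held 8.66% of the Dysf TPM in muscle and 38.2% in adipose tissue, a difference of -29.5 ± 3.59 (SE) percentage points (limma adjusted p = 0.000837). Dysf-215 held 1.36% in muscle and 13.4% in adipose tissue (limma adjusted p = 0.000704). In the other direction, Dysf-202 held 18.9% in muscle and 5.13% in adipose tissue (limma adjusted p = 0.0274), and Dysf-211 held 8.33% in muscle and 0.658% in adipose tissue (limma adjusted p = 0.00688). The coding Dysf transcripts that start at the upstream of its 2 start regions made up 23.4% to 63.5% of the coding TPM in muscle (median 55.2%) and at most 43.3% in adipose tissue (median 35.5%), so these ranges overlapped.

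In Anxa4, a transcript annotated for nonsense-mediated decay, Anxa4-204, held 15.7% of the gene's TPM in muscle and 3.32% in adipose tissue, a difference of 12.4 ± 1.17 (SE) percentage points (limma adjusted p = 0.000234). The main coding transcript Anxa4-201 held 60.4% in muscle and 69.4% in adipose tissue (limma adjusted p = 0.0257). Anxa11-201 held 97.6% in muscle and 94.1% in adipose tissue (limma adjusted p = 0.0302). The calls of Dysf-201, Dysf-211, Dysf-215 and Anxa4-204 held under all 11 alternatives run, and those of Anxa4-201, Dysf-202 and Anxa11-201 held under 7, 5 and 3 of them. Not all of a gene's TPM came from coding transcripts: coding transcripts made up 54.5% of Anxa5 in muscle and 59.7% in adipose tissue, since the retained-intron transcript Anxa5-202 took nearly all the rest. For Dysf they made up 62.8% in muscle and 69.1% in adipose tissue.

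Anxa6, whose protein has a doubled set of annexin repeats, has an 18-base optional exon at chr11:54987051-54987068 on the minus strand. It is shown beside the Dysf exons as one whose use was alike in muscle and adipose tissue:
Anxa6 18-base exon: gtggctgctgagatcttg
This exon was in 79.4% ± 2.46 of the coding Anxa6 TPM in muscle and in 78.1% ± 0.863 in adipose tissue (SD, n = 9 each), and the ranges overlapped.

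RefSeq promoter windows of 300 bases on GRCm38.p6 were available for 8 of the 10 genes, 11 windows in all. The windows were searched on both strands for AGAACA, a hexamer of the glucocorticoid response element that reads TGTTCT on the other strand, and for the palindrome of the hexamer, any 3 bases and its reverse complement. The palindrome contains the hexamer on each strand, so the searches overlap. The hexamer was in 2 of the 11 windows, one of Dysf and one of Anxa4, or 18.2%, and in 19.0% of all 32851 windows. The palindrome was in 0 of the 11 and in 0.00913% of all. The 2 Dysf windows are printed because the gene's transcripts divide between these starts. They lie on the plus strand at chr6:84008348-84008647 and chr6:84019136-84019435, and capitals mark the hexamer on either strand:
Dysf upstream start: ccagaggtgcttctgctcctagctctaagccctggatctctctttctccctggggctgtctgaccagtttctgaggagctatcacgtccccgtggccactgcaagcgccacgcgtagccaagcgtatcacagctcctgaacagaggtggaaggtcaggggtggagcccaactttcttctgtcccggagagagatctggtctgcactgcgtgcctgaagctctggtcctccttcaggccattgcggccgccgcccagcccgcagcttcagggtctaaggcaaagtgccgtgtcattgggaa
Dysf downstream start: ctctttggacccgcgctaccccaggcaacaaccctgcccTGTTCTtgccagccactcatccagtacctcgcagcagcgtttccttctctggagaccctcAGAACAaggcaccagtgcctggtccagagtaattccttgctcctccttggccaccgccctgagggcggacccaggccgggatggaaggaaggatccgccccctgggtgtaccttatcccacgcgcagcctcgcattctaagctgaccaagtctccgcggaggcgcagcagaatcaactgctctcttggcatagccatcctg
A match describes these letters only, and no binding was measured.

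In muscle none of the 10 genes was called after either regimen. The test in each tissue was limma on log2(TPM + 1) over 12246 genes in muscle and 14150 in adipose tissue. Fold changes on this scale understate those of genes with few TPM. Weekly prednisone gave 0 calls among the 10 genes, where 0.049% of all genes tested were called. An unadjusted p under 0.05 was reached by 4 of the 10, and by 15.4% of all genes. Daily prednisone gave 0 calls, where 13.7% of all genes were called. An unadjusted p under 0.05 was reached by 3 of the 10, and by 3676 of all 12246 genes. No other tool was run.

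Anxa1 and Anxa2 had their highest muscle value in the same daily mouse. Anxa1 was 29.4, 35.2 and 34.7 TPM in weekly muscle, 58.4, 28.7 and 40.5 TPM in daily muscle, and 25.1, 33.4 and 27.8 TPM in vehicle muscle. Daily 1 and daily 3 were above all vehicle mice and daily 2 was not, so the groups overlapped. The log2 difference of daily from vehicle was 0.50 ± 0.22 (SE; limma adjusted p = 0.154). In the only 1 of 15 alternatives with a call, without daily 2, it was 0.75 (limma adjusted p = 0.0262).

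Anxa2 was 82.1, 104 and 96.4 TPM in weekly muscle, 162, 78.3 and 107 TPM in daily muscle, and 96.5, 88.4 and 91.8 TPM in vehicle muscle, and the 3 groups overlapped. Its difference of daily from vehicle was 0.27 ± 0.21 (SE), and it was -0.01 in the lowest of the 15 alternatives. Macrophage markers were higher in all 3 daily mice than in every weekly and vehicle mouse, and were highest in daily 1. The 8 markers summed to 513, 339 and 405 TPM in daily muscle, 196 to 201 TPM in weekly muscle and 188 to 269 TPM in vehicle muscle. Of these 8 markers, 3 were called higher after daily prednisone. None of the 8 was at 0 in any muscle library. Adipocyte, progenitor and mesothelial markers were also highest in daily 1, and endothelial markers were not. The 6 endothelial markers summed to 131, 117 and 118 TPM in daily muscle, 125 to 131 TPM in weekly muscle and 123 to 139 TPM in vehicle muscle. The 7 adipocyte markers summed to 1742, 665 and 1059 TPM in daily muscle, 1094 to 1487 TPM in weekly muscle and 1256 to 1712 TPM in vehicle muscle, and 0 of them were called. The 7 progenitor markers summed to 931, 663 and 756 TPM in daily muscle, 664 to 697 TPM in weekly muscle and 580 to 750 TPM in vehicle muscle, and 1 was called higher. The 5 mesothelial markers summed to 4.33, 2.03 and 1.99 TPM in daily muscle, 0.914 to 1.22 TPM in weekly muscle and 1.07 to 1.55 TPM in vehicle muscle. Of these Upk3b and Upk1b were at 0 in all 9 muscle libraries and Lrrn4 in 2, and the 1 that could be tested was called higher. The part of any of these markers in the values of Anxa1 and Anxa2 was not tested. Anxa5 was 99.7, 53.0 and 67.6 TPM in daily muscle, again highest in daily 1, against 80.2, 68.1 and 69.1 TPM in vehicle muscle. Anxa3 and Anxa4 were highest in daily 1 as well, at 20.4 and 25.8 TPM.

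Anxa6, Anxa7, Anxa11 and Trim72 had lower means in prednisone-treated muscle, by small amounts that were not called. Anxa11 was 86.3, 79.5 and 79.2 TPM in weekly muscle, 77.3, 85.6 and 78.1 TPM in daily muscle, and 86.9, 98.4 and 93.8 TPM in vehicle muscle, so that every treated mouse was below every vehicle mouse. Its difference was -0.18 ± 0.06 after weekly and -0.21 ± 0.06 after daily prednisone (SE; limma adjusted p = 0.242 and 0.062). Without daily 2 the daily difference was -0.26 (limma adjusted p = 0.0439), its only call in 15 alternatives.

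Anxa7 was 40.4, 38.2 and 38.2 TPM in weekly muscle, 41.1, 37.5 and 39.8 TPM in daily muscle, and 44.9, 44.3 and 42.6 TPM in vehicle muscle, again with every treated mouse below the vehicle mice. Trim72 was 82.7, 77.6 and 75.5 TPM in weekly muscle, 81.0, 82.1 and 77.0 TPM in daily muscle, and 84.6, 86.7 and 84.6 TPM in vehicle muscle. Both treated groups lay below the vehicle group without overlap, while the weekly and daily groups overlapped, and the log2 differences of Trim72 were only -0.12 ± 0.05 after weekly and -0.09 ± 0.05 after daily prednisone (SE). Anxa6 was 101, 102 and 96.2 TPM in weekly muscle, 113, 98.1 and 103 TPM in daily muscle, and 114, 116 and 109 TPM in vehicle muscle, so that weekly mice were all below vehicle mice and daily 1 overlapped with them.

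After weekly prednisone 5 of the 10 genes had groups that did not overlap and were lower than vehicle (Anxa4, Anxa6, Anxa7, Anxa11 and Trim72), where 19.3% of all genes tested did so. After daily prednisone it was 3 of 10 (Anxa7, Anxa11 and Trim72), where 27.8% of all genes did so. Both comparisons use the same vehicle libraries. The median gene of all those tested in muscle differed from vehicle by -0.07 after weekly and -0.09 after daily prednisone, and both medians were close to 0 after TMM. Under TMM none of the 10 genes had an unadjusted p under 0.05 after weekly prednisone, and 2 did after daily.

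Dysf was 17.8, 16.8 and 15.2 TPM in weekly muscle, 17.2, 19.8 and 21.3 TPM in daily muscle, and 21.9, 15.8 and 20.4 TPM in vehicle muscle. All 3 groups overlapped, and the 95% confidence intervals of its log2 difference from vehicle were -0.47 to 0.08 after weekly and -0.26 to 0.29 after daily prednisone. Between the regimens 0 of the 10 genes were called in muscle, where 1.77% of all genes were called. An unadjusted p under 0.05 was reached by 1 of the 10, and by 17.4% of all genes. That gene was Anxa4, at 17.6, 18.5 and 18.3 TPM in weekly muscle and 25.8, 18.6 and 22.0 TPM in daily muscle, which did not overlap, where 8.58% of all genes were lower without overlap.

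**Figure D3:**
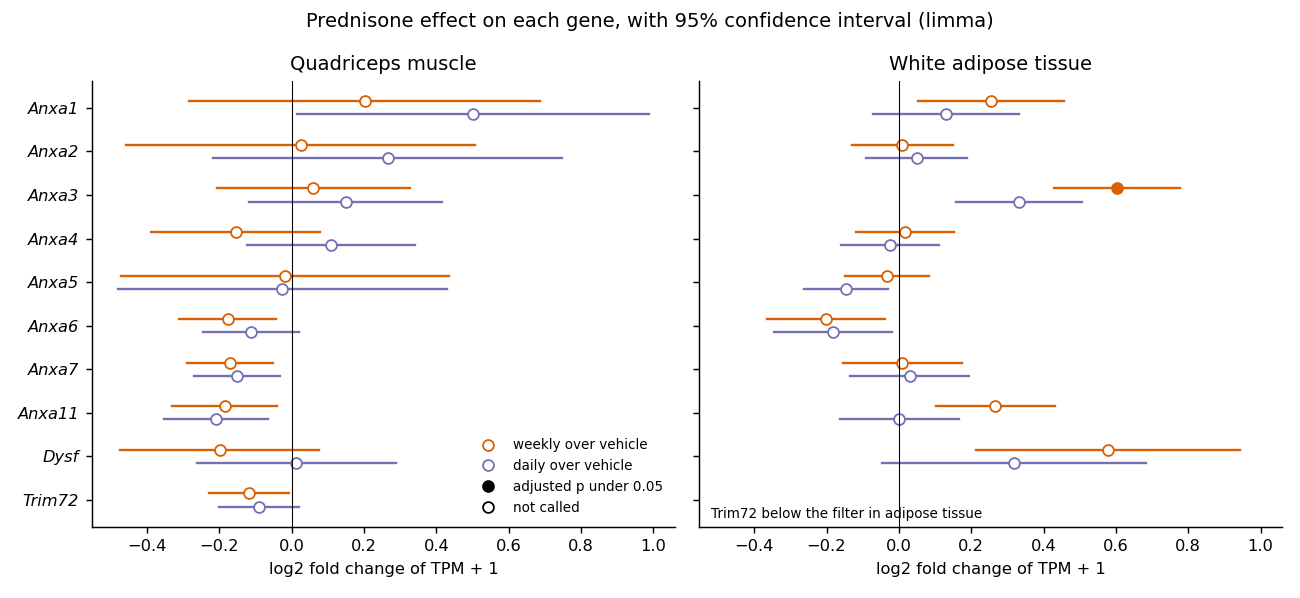
Log2 fold change of TPM + 1 over vehicle for each gene in muscle and adipose tissue, with weekly above daily and limma's 95% confidence interval as a line. Filled points are called at an adjusted p under 0.05, which holds for Anxa3 in weekly adipose tissue alone, at 0.60, and Trim72 is not plotted in adipose tissue because it did not reach the level tested.

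In adipose tissue Anxa3, an annexin of endothelial cells and neutrophils among others, rose after weekly prednisone. It was 84.7, 77.2 and 84.6 TPM in weekly adipose tissue, 66.4, 67.4 and 70.0 TPM in daily adipose tissue, and 51.5, 50.3 and 59.8 TPM in vehicle adipose tissue. The 3 groups did not overlap, with weekly highest and vehicle lowest. The log2 difference of weekly from vehicle was 0.60 ± 0.08 (SE; limma adjusted p = 0.00706), which is a ratio of 1.52. The daily difference from vehicle was 0.33 ± 0.08 and the weekly from daily difference 0.27 ± 0.08, and neither was called (SE; limma adjusted p = 0.313 and 0.199).

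Of the 9 genes tested, 5 had an unadjusted p under 0.05 after weekly prednisone, as did 30.8% of all genes. Anxa3 was the only one of the 9 that was called after weekly prednisone, where 7.43% of all genes were called, 5.72% as higher. The call held in 15 of 16 alternatives, among them the one without the 3 adipose libraries that held muscle transcripts, where the difference was 0.65 (limma adjusted p = 0.0227) and the lone weekly library was taken to vary like the other groups. Without the third library of each group it was 0.66 (limma adjusted p = 0.253), and under that alternative 1 gene of all those tested was called. The median gene in weekly adipose tissue was 0.13 above vehicle as deposited and 0.00 after TMM, and under TMM Anxa3 differed by 0.46. Markers of several other cell types were also higher in weekly adipose tissue. Of the markers tested, 3 of 8 for macrophages, 4 of 7 for fibro-adipogenic progenitors, 2 of 5 for mesothelium and 0 of 6 for endothelium were called higher. The 6 endothelial markers summed to 402 to 558 TPM in weekly adipose tissue, 334 to 388 TPM in daily and 367 to 383 TPM in vehicle adipose tissue. The 7 progenitor markers summed to 2041 to 2568 TPM in weekly, 1608 to 1974 TPM in daily and 1733 to 1777 TPM in vehicle adipose tissue. The 8 macrophage markers summed to 2295 to 2640 TPM in weekly, 2296 to 2356 TPM in daily and 1739 to 2295 TPM in vehicle adipose tissue. The 5 mesothelial markers summed to 69.3 to 124 TPM in weekly, 47.2 to 61.4 TPM in daily and 44.0 to 71.5 TPM in vehicle adipose tissue. None of these markers was at 0 in any adipose library, and their part in the value of Anxa3 was not tested.

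**Figure D4:**
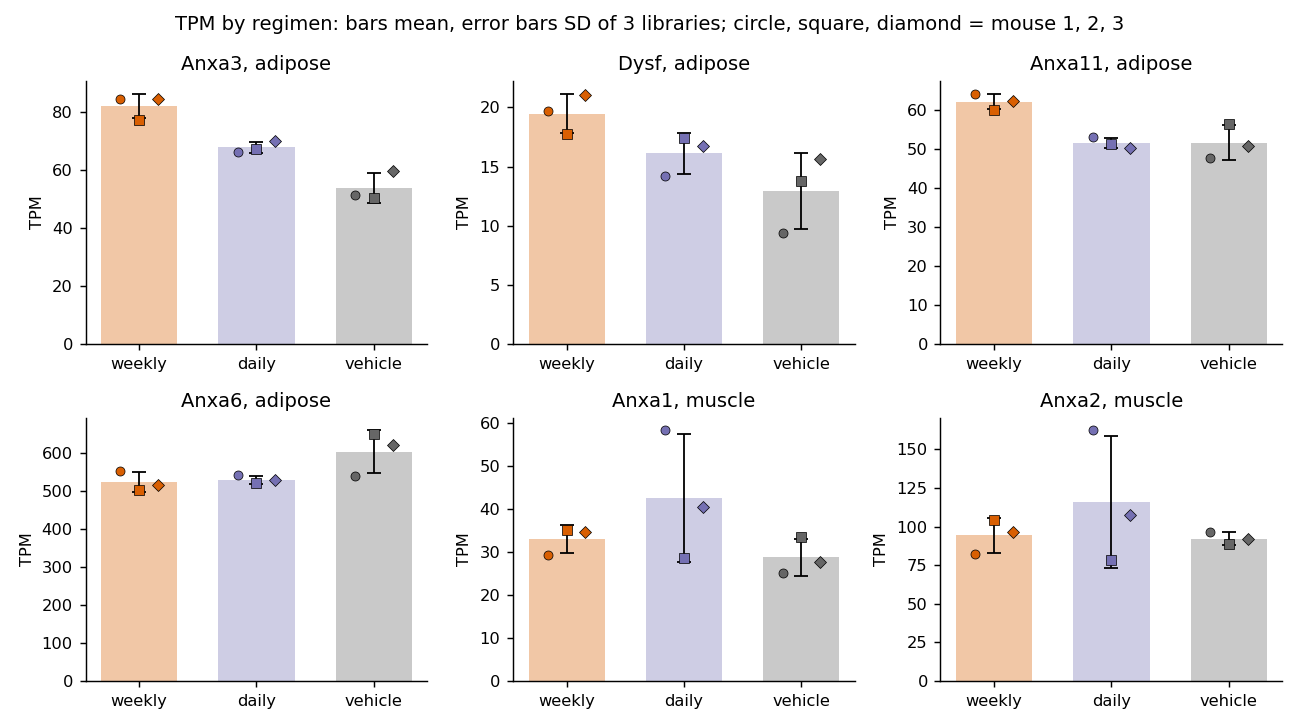
TPM of 6 gene and tissue pairs in the weekly, daily and vehicle groups, with bars for the mean, error bars for the SD of 3 libraries and symbols for the mice. Anxa3 in adipose tissue averages 82.2 TPM in the weekly, 67.9 TPM in the daily and 53.9 TPM in the vehicle group without overlap, and Anxa1 and Anxa2 in muscle are spread most widely in the daily group.

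Dysf and Anxa11 were higher in every weekly than in every vehicle adipose library, without being called. Dysf was 19.7, 17.7 and 21.1 TPM in weekly adipose tissue, 14.2, 17.4 and 16.8 TPM in daily adipose tissue, and 9.41, 13.8 and 15.7 TPM in vehicle adipose tissue. Its weekly difference was 0.58 ± 0.16 (SE; limma adjusted p = 0.0581), close to that of Anxa3 in size with a larger error. With coding transcripts alone the difference was 0.23 (limma adjusted p = 0.19), and without vehicle 1 it was 0.38. Without the 3 libraries with muscle transcripts it was 0.59 (limma adjusted p = 0.149).

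Anxa11 was 64.2, 60.1 and 62.4 TPM in weekly adipose tissue, 53.0, 51.5 and 50.4 TPM in daily adipose tissue, and 47.7, 56.5 and 50.9 TPM in vehicle adipose tissue. The weekly group stood above both others, and the daily and vehicle groups overlapped. Its weekly difference from vehicle was 0.27 ± 0.07 (SE; limma adjusted p = 0.0544) and 0.12 after TMM. In the only 1 of 16 alternatives with a call, without vehicle 2, it was 0.33 (limma adjusted p = 0.0499). Without the 3 libraries with muscle transcripts it was 0.31 (limma adjusted p = 0.103). Trim72 was 0.35, 0.68 and 0.81 TPM in weekly, 0.24, 0.62 and 0.28 TPM in daily and 0.11, 0.14 and 0.04 TPM in vehicle adipose tissue. Weekly 2, weekly 3 and daily 2, the libraries with muscle transcripts, had its 3 highest values, and its part from muscle was not tested.

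Anxa1 was 546, 709 and 671 TPM in weekly adipose tissue, 557, 603 and 597 TPM in daily adipose tissue, and 517, 536 and 551 TPM in vehicle adipose tissue. Weekly 1 lay within the vehicle range, and the daily and vehicle groups did not overlap. Its weekly difference was 0.25 ± 0.09 (SE; limma adjusted p = 0.0959). In the only 1 of 16 alternatives with a call, without weekly 1, it was 0.37 (limma adjusted p = 0.0271). Without the 3 libraries with muscle transcripts, which leaves weekly 1 alone in its group, it was 0.03.

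Anxa6 was 552, 502 and 515 TPM in weekly adipose tissue, 541, 520 and 528 TPM in daily adipose tissue, and 540, 649 and 620 TPM in vehicle adipose tissue. Vehicle 1 was within the range of the treated mice. The weekly difference was -0.20 ± 0.07 (SE; limma adjusted p = 0.102). In the 2 of 16 alternatives with a call it was -0.35 under TMM (limma adjusted p = 0.0193) and -0.28 without vehicle 1 (limma adjusted p = 0.048). Without the 3 libraries with muscle transcripts it was -0.12 (limma adjusted p = 0.438). Anxa2, Anxa4, Anxa5 and Anxa7 differed from vehicle by -0.03 to 0.02 after weekly prednisone, less than their standard errors, and after TMM by -0.18 to -0.13.

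Daily prednisone in adipose tissue gave 0 calls among the 9 genes tested, where 0.00707% of all genes were called. An unadjusted p under 0.05 was reached by 3 of the 9, and by 9.22% of all genes. Those 3 were Anxa3, Anxa5 and Anxa6. Anxa5 was 866, 878 and 862 TPM in daily adipose tissue and 946, 954 and 984 TPM in vehicle adipose tissue, which did not overlap, with a difference of -0.15 ± 0.05 (SE; limma adjusted p = 0.454). Between the regimens 0 of 9 were called, where 0.311% of all genes were called. An unadjusted p under 0.05 was reached by 2 of the 9 (Anxa3 and Anxa11), and by 15.8% of all genes.

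Groups that did not overlap were counted over the 9 genes tested. After weekly prednisone 3 of 9 were higher than vehicle in adipose tissue without overlap (Anxa3, Anxa11 and Dysf), where 27.6% of all genes tested were. After daily prednisone 3 of 9 did not overlap with vehicle, Anxa1 and Anxa3 above it and Anxa5 below it, where 15.6% of all genes did not. Weekly was above daily without overlap for 4 of 9 (Anxa3, Anxa5, Anxa11 and Dysf), where 22.5% of all genes tested were. Trim72, below the level tested, was above vehicle without overlap after both regimens.

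The weekly effect on Anxa11 differed between the tissues. Its muscle minus adipose difference in the effect of weekly prednisone was -0.45 ± 0.09 (SE; limma adjusted p = 0.0408), made up of -0.18 in muscle and 0.27 in adipose tissue. It was 1 of 9 genes tested, and 2.78% of all genes were called in this comparison, 2.72% as lower in muscle. The call held in 3 of 15 alternatives, and under TMM the difference was -0.26 (limma adjusted p = 0.347). Of the 9 genes, 3 had an unadjusted p under 0.05 in this comparison, as did 28.1% of all genes. The tissue difference was -0.78 ± 0.22 for Dysf and -0.54 ± 0.17 for Anxa3 (SE; limma adjusted p = 0.0767 and 0.0902). For daily prednisone 0 of 9 were called, where 0.0511% of all genes were. An unadjusted p under 0.05 was reached by 1 of the 9 (Anxa11, -0.21 ± 0.09), and by 13.8% of all genes.

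The other genes of membrane repair were followed as 42 genes in 7 lists. In muscle 37 were tested, and after daily prednisone 2 were called higher and 5 lower, where 1.91% and 11.8% of all genes were called higher and lower. S100a4, a calcium-binding partner of annexins that macrophages and fibroblasts express, was 107, 55.4 and 78.6 TPM in daily muscle, against 24.6, 39.3 and 26.6 TPM in vehicle muscle. It was higher in all 3 daily mice and rose by 1.36 ± 0.23 on the log2 scale (SE; limma adjusted p = 0.00758). Weekly muscle had 25.4, 22.7 and 21.2 TPM of S100a4, below all daily mice (-1.71 ± 0.23; limma adjusted p = 0.0105).

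Myoferlin (Myof), the ferlin closest to dysferlin, was 2.80, 1.72 and 1.88 TPM in daily muscle and 0.99, 1.20 and 1.18 TPM in vehicle muscle, a rise of 0.55 ± 0.13 (SE; limma adjusted p = 0.0269) that held in 8 of 15 alternatives. The 5 that fell in daily muscle were Chmp1a, Chmp4b and Vps4a, of the ESCRT machinery that pinches off damaged membrane, Smpd1, the acid sphingomyelinase, and Ano5, a muscle anoctamin whose human mutations cause a limb-girdle dystrophy. Their log2 differences were -0.25, -0.21, -0.22, -0.32 and -0.29, and these calls held in 12, 7, 9, 13 and 6 of 15 alternatives. The rise of S100a4 held in 14. After weekly prednisone 0 of the 37 were called in muscle. The other annexin partners S100a6, S100a10 and S100a11 were not called in muscle, and daily 1 had the highest value of each, at 216, 135 and 193 TPM.

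In adipose tissue 34 of the 42 were tested and 2 were called higher after weekly prednisone, where 5.72% of all genes were. Myof was 21.1, 15.6 and 16.5 TPM in weekly and 10.9, 10.7 and 10.5 TPM in vehicle adipose tissue, a rise of 0.67 ± 0.13 (SE; limma adjusted p = 0.0232) that held in 9 of 16 alternatives. Capn2, a calpain protease that cuts repair proteins, was 206, 187 and 188 TPM in weekly and 156, 170 and 167 TPM in vehicle adipose tissue, a rise of 0.24 ± 0.06 (SE; limma adjusted p = 0.0491) that held in 2 of 16. Without the 3 libraries with muscle transcripts the differences were 0.92 for Myof and 0.33 for Capn2. This leaves weekly 1 alone in its group, and it had the highest weekly value of both genes. In the lowest of the 16 alternatives the differences were 0.53 for Myof and 0.09 for Capn2. No gene of the lists was called after daily prednisone or between the regimens in adipose tissue. The median difference over the 34 genes after weekly prednisone was 0.13, as it was over all genes tested.

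Between tissues, 31 of 33 tested repair genes were lower in muscle of vehicle mice and 2 were higher, with a median of -1.92. The 33 had to reach 1 TPM in at least 3 libraries of both tissues. Cav3, Capn3, Murc and Ano5 were too low in adipose tissue for this and Anxa9 in muscle, so they are not among the 33. Of all genes tested 73.9% were called lower and 13.1% higher, with a median of -0.88 as deposited and 0.01 after TMM. Of the 31, 25 were lower under every alternative run, and 6 were above 0 under at least 1 of them. S100a10 averaged 81.3 ± 8.66 TPM in muscle and 671 ± 60.2 TPM in adipose tissue (SD, n = 3 each), a difference of -3.03 ± 0.15 (SE), and S100a11 averaged 130 ± 2.22 TPM in muscle and 2570 ± 149 TPM in adipose tissue. The muscle caveolin Cav3 averaged 50.3 ± 3.19 TPM in muscle and 0.606 ± 0.191 TPM in adipose tissue, and the muscle calpain Capn3 averaged 66.1 ± 1.74 TPM in muscle and 0.671 ± 0.889 TPM in adipose tissue. Murc averaged 78.6 ± 4.57 TPM in muscle and 0.546 ± 0.203 TPM in adipose tissue, and Ano5 averaged 20.6 ± 1.41 and 0.0073 ± 0.0126 TPM. Anxa9 averaged 0.161 ± 0.102 TPM in muscle and 4.19 ± 0.669 TPM in adipose tissue.

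For 6 profiles the genes nearest to a member over the 9 libraries of a tissue were named, by the root mean squared difference of centred log2(TPM + 1). They were compared with genes averaging at least 5 TPM, 7651 in muscle and 10417 in adipose tissue. In muscle the nearest to Anxa2 were Tuba1a, Fabp5 and Dap at 0.11 each, against a median of 0.32 over all genes. Nearest to Trim72 were Cct7, Pcmt1 and Srp9 at 0.03 each, against 0.12 over all genes, and nearest to Dysf were Gm13464, Mical2 and Tecr at 0.08 to 0.09. In adipose tissue the nearest to Anxa1 were Wtip, Rras2 and Sult1a1 at 0.06 each, to Anxa2 Ap3s1, Hsdl2 and Psmd10 at 0.03 to 0.04, and to Dysf Plxnd1, Bcl9 and Birc3 at 0.09 to 0.12. These libraries share their regimen and composition, and the nearness is a description.

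Of the 10 genes, all but Anxa6 and Anxa7 overlap another annotated gene. Anxa2, Anxa11, Dysf and Trim72 overlap an antisense gene, and Anxa1 and Anxa4 a noncoding gene on the opposite strand. On their own strand, Anxa2 and Anxa5 overlap a microRNA gene, Anxa3 overlaps Gm42603 and Dysf overlaps a processed pseudogene. The libraries were stranded, but whether the quantification used the strand is not given in the sources used here. Reads of opposite-strand pairs may therefore have been shared, and the strand does not separate pairs on the same strand.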

How the data were processed

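Per the labels, 18 stranded mRNA libraries were made, 1 from the quadriceps and 1 from the white fat of each of 9 mice. The authors deposited TPM for 105129 transcripts, and per the submitters' processing notes Trimmomatic, HISAT2 and kallisto were used with mm10, in versions and roles not given in the sources used here. Transcript TPM was summed per symbol. Genes at 1 TPM or more in at least 3 libraries of a tissue (12246 in muscle, 14150 in adipose tissue) were tested on log2(TPM + 1) with limma 3.58.1 in R 4.3.3 (eBayes with trend, 6 residual degrees of freedom), with Benjamini-Hochberg adjustment over all genes and a threshold of 0.05. Tissues were compared on each mouse's difference over 11737 genes. The labels' numbers matched the tissues of a mouse. Same-numbered mice of different groups do not correlate (median residual correlation -0.0304 in muscle and 0.0295 in adipose tissue). Transcripts were matched to GENCODE M21 on GRCm38, 94.65% with and 98.579% without the version number. Figures were made with matplotlib 3.10.9.

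Alternatives were TMM scaling, a pseudocount of 0.1, no filter, the replicate block added or removed, each library left out, the third libraries or the adipose libraries with muscle transcripts left out, and, added after seeing the data, coding transcripts only. The tests were tested on simulated data. The genes, lists and rules were chosen with earlier results of these data known. The named genes are the 10 members, their transcripts at a share of 10% or more, up to 3 called genes per repair list and comparison, and the 3 nearest profiles for 6 gene and tissue pairs.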

Additional observations from a re-analysis of the deposited data

Results flagged for a closer look

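The weekly effect on Anxa11 was called as different between the tissues of the same mice, with a muscle minus adipose difference of -0.45 ± 0.09 (SE; limma adjusted p = 0.0408). Weekly muscle averaged 81.7 ± 4.02 TPM against 93.0 ± 5.77 TPM in vehicle muscle, and weekly adipose tissue averaged 62.3 ± 2.04 TPM against 51.7 ± 4.45 TPM in vehicle adipose tissue (SD, n = 3 each). All 3 weekly mice were below the vehicle mice in muscle and above them in adipose tissue. The median gene tested differed in the same comparison by -0.19 as deposited and by -0.01 after TMM, under which Anxa11 was at -0.26 (limma adjusted p = 0.347). Over the 15 alternatives the adjusted p of Anxa11 ran from 0.0272 to 0.347.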

How the results depend on the processing

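Of 1287 values of single genes under the alternatives, 1224 stayed within their error or on their side of the threshold, 42 moved beyond it without a call being involved, 13 lost a call, 7 gained one and 1 reversed, which was Anxa7 between tissues (0.28 under TMM). Numbers of members called moved as follows. After weekly prednisone in adipose tissue 1 was called, 2 under TMM and 0 without the third libraries, and leaving out single libraries gave 1 to 2. After daily prednisone in muscle leaving out single libraries gave 0 to 2. For the tissue difference of the weekly effect 1 was called, and 0 under TMM, a pseudocount of 0.1, no filter or the third mice left out, and 0 to 1 with single mice left out. For transcript shares 7 were called, and 4 without daily mouse 1 or daily mouse 3. With the replicate number as a block 0 members were called in the muscle comparisons and 1, 0 and 0 in the adipose ones. This changed no other call, and without the mouse as a block 2 were called for the tissue difference of the weekly effect. The causes were not tested.

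Over all genes the counts moved more. After weekly prednisone in adipose tissue 1052 were called (809 higher, 243 lower), 1116 under TMM (458 higher, 658 lower), 291 with no filter, 1 without the third libraries, 2138 without those with muscle transcripts and 64 to 1511 with single libraries left out. After daily prednisone in muscle 1674 were called (234 higher, 1440 lower), 814 under TMM (367 higher, 447 lower), 8 without the third libraries and 532 to 1668 with single libraries left out. For the tissue difference of the weekly effect 326 were called, 4 under TMM, 177 with a pseudocount of 0.1, 24 with no filter, 510 without the block, 595 with coding transcripts only, 1 without the third mice and 0 to 583 with single mice left out. Between regimens 217 were called in muscle (100 with the block, 10 without the third libraries, 37 to 282 with single libraries left out) and 44 in adipose tissue (14 under TMM, 8 with no filter, 12 with the block, 87 with coding transcripts only, 0 without the third libraries, 2 without those with muscle transcripts, 2 to 47 with single libraries left out). The smallest counts were 6 after weekly prednisone in muscle, 1 after daily in adipose tissue and 6 for the tissue difference of the daily effect. With single libraries or mice left out they were 0 to 11, 0 to 14 and 0 to 9. Without the block the count for the tissue difference of the daily effect was 73. TPM keeps no depth, so counting error cannot be given.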
